A study of Mus musculus with 12 samples.

Results

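The subject is the change in gene expression when a mouse embryonic stem cell (ESC) line with a Smarcd1 knockdown, called KD1, was differentiated with retinoic acid. The arrays were chosen by their sample titles: 4 arrays of KD1 cells after differentiation (RA KD1) and 2 arrays of undifferentiated KD1 cells (ESC KD1), 6 of the 12 arrays in all. RA KD1 cells were R1 ESCs with the knockdown, grown for 4 days without leukemia inhibitory factor (LIF) and with 1 µM retinoic acid. ESC KD1 cells carried the same knockdown and were kept in LIF with no retinoic acid. R1 cells that had been infected with a scrambled control were treated in the same way and gave 2 arrays after retinoic acid (RA scrambled) and 2 before it (ESC scrambled). Another 2 arrays, of undifferentiated cells of a line called KD2, entered none of the differences below. They entered the estimate of the spread between replicates, the choice of probe set per gene and the filter on dim genes. All of these cells are R1, a widely used male mouse ESC line.

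R1 ESCs were grown on mouse embryonic fibroblasts that had been treated with mitomycin, so feeder RNA can be present in the samples. The protocols speak of knockdown and control clones, so KD1 stands for 1 knockdown clone or line and scrambled for 1 control. Replicates are called biological in the titles, but the sources do not say whether they came from separate cultures, and the p-values measure only the spread between these arrays. The small number of arrays limits the precision of every value. These are bulk samples, in which fewer cells of a type and less RNA per cell cannot be told apart.

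Retinoic acid is made from vitamin A and enters the nucleus, where it binds the receptors RARA, RARB and RARG. These pair with the RXR receptors on DNA and switch on nearby genes once the ligand is bound. Among the genes they act on directly are Rarb itself, the Hox genes, which give cells their position along the body axis, and Cyp26a1, whose enzyme breaks retinoic acid down. Withdrawal of LIF together with retinoic acid is a standard way to end self-renewal of ESCs, and depending on the culture the cells take on neural, mesenchymal or extraembryonic endoderm expression. Extraembryonic endoderm is the tissue that lines the yolk sac. Its parietal part lays down a thick basement membrane of laminin and type IV collagen, and its visceral part takes up and carries nutrients. Smarcd1 (BAF60a) is a subunit of the BAF chromatin remodelling complex.

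Each value below is a log2 array value of 1 probe set per gene, and a difference of 1 on this scale is a factor of 2. The arrays measured 19938 named genes, of which 12988 passed a filter on dim genes and were tested. A gene is said to have risen or fallen when limma's test, adjusted over all 12988 genes with the Benjamini-Hochberg method, gave an adjusted p under 0.05. Errors after ± are standard errors (SE) of a difference, with 4 RA KD1 and 2 ESC KD1 arrays. Array values correlated at 0.985 to 0.994 among RA KD1 arrays, at 0.991 between the ESC KD1 arrays and at 0.819 to 0.835 between RA KD1 and ESC KD1 arrays.

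The knockdown target itself checks the labels. Smarcd1 (probe set 10426798, chromosome 15) stood at 6.36, 6.61, 6.50 and 6.44 in RA KD1, against 7.75 and 7.78 in ESC KD1. In RA scrambled it stood at 8.84 and 8.64, against 8.67 and 8.68 in ESC scrambled. Every KD1 array was thus below every scrambled array, and the RA KD1 arrays were below the ESC KD1 arrays. The difference between RA KD1 and ESC KD1 was -1.29 ± 0.28 (adjusted p 0.00265). In scrambled cells the corresponding difference was 0.07 ± 0.33 (adjusted p 0.896). The difference between these changes was -1.35 ± 0.43 and did not pass the threshold (adjusted p 0.0855).

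Of the 12988 tested genes, 3819 were higher in RA KD1 than in ESC KD1 (29.4%) and 2777 were lower (21.4%). Any list of genes has to be read against these shares. The median difference over all tested genes was 0.06. Among the genes that passed, 1879 were higher and 1177 lower by at least 1 log2 unit, and 142 were higher and 130 lower by at least 3. The RA KD1 and ESC KD1 arrays did not overlap for 9634 tested genes, of which 6584 passed the threshold. On RA KD1 replicates 1 and 2 alone, 3109 genes were higher and 2125 lower.

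The 4 genes proposed as markers of the differentiated KD1 cells all rose, and 2 of them, Cyp26a1 and Krt19, were high after retinoic acid in scrambled cells as well. In RA scrambled Cyp26a1 stood at 10.54 and 10.32, against 8.90 and 4.39 in ESC scrambled (3.79 ± 0.95, adjusted p 0.00817). Krt19 stood at 10.27 and 10.23 in RA scrambled, against 8.22 and 5.49 in ESC scrambled (3.39 ± 0.67, adjusted p 0.00203). Cyp26a1 (probe set 10462853, chromosome 19) stood at 12.27, 12, 12.05 and 12.07 in RA KD1, against 4.57 and 4.26 in ESC KD1, a 206-fold difference (7.68 ± 0.83, adjusted p 1.58e-05). It was the largest increase among the genes eligible to be named. Krt19 (10391036, chromosome 11), a keratin of simple epithelia and of endoderm, stood at 10.86, 10.95, 10.81 and 10.88 in RA KD1, against 5.92 and 5.13 in ESC KD1 (5.35 ± 0.58, adjusted p 1.78e-05). Gata4 (10420747, chromosome 14), a transcription factor of endoderm and heart, stood at 10.45, 10.57, 11.05 and 10.82 in RA KD1, against 5.88 and 5.84 in ESC KD1 (4.86 ± 0.17, adjusted p 8.8e-09). Without RA KD1 replicates 3 and 4 the differences were 7.72 for Cyp26a1, 5.38 for Krt19 and 4.65 for Gata4 (adjusted p 0.000596 or less). For these 3 genes the RA KD1 arrays lay close together and far above both ESC KD1 arrays. Sox7 (10415885, chromosome 14), an endoderm transcription factor, was more spread: 8.58, 8.69, 10.32 and 10.01 in RA KD1, against 5.16 and 5.25 in ESC KD1 (4.19 ± 0.42, adjusted p 8.75e-06).

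**Figure D1:**
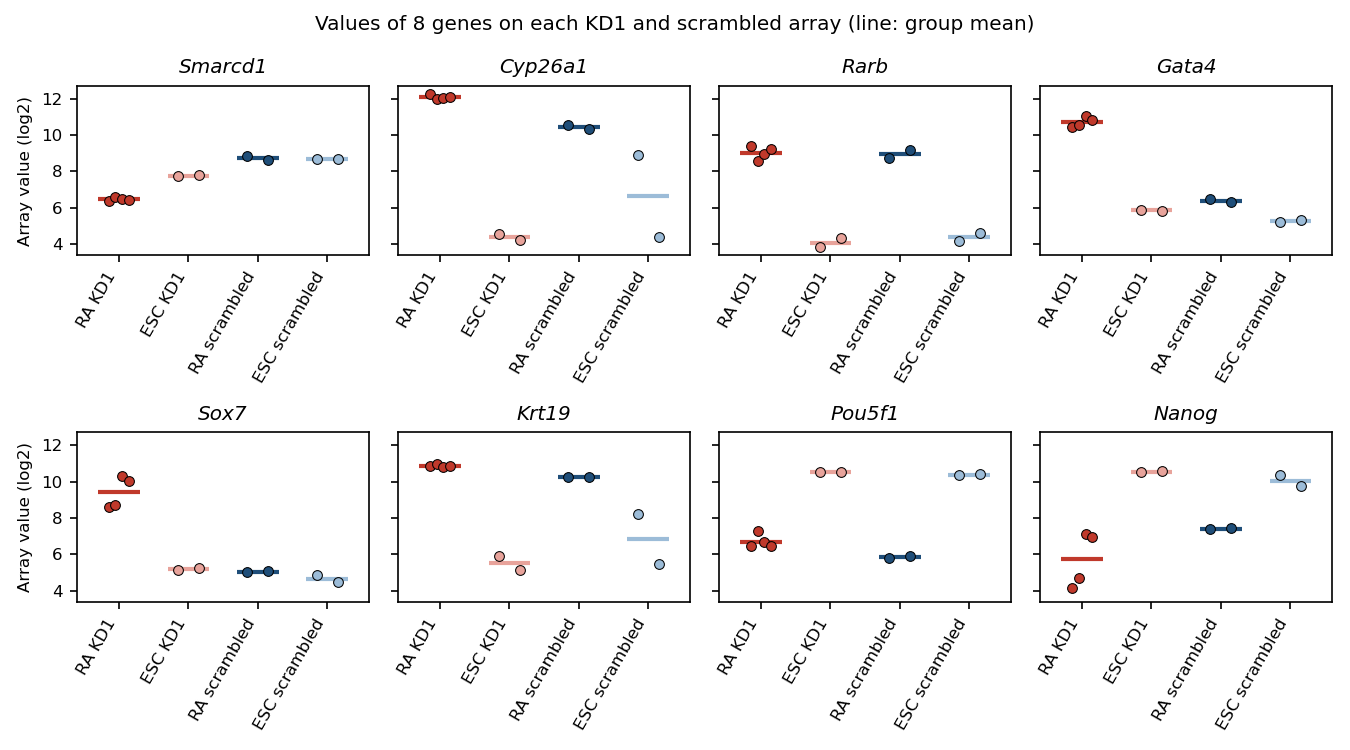
Log2 array values of 8 genes on each array (points) with the mean of each group (lines), for RA KD1, ESC KD1, RA scrambled and ESC scrambled. Cyp26a1, Rarb, Gata4, Sox7 and Krt19 are higher and Pou5f1 and Nanog lower on all 4 RA KD1 arrays than on both ESC KD1 arrays, while ESC scrambled replicate 1 stands at 8.90 for Cyp26a1 against 4.39 on replicate 2.

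The retinoic acid genes were described from a list of 29, of which 23 were tested. In RA KD1 15 of the 23 rose and 2 fell, and the median difference was 1.62 beside 0.06 for all tested genes. In scrambled cells, where 22.4% of all tested genes rose and 16.7% fell, 17 rose and 0 fell, with a median of 2.61. Among the receptors, Rarb stood at 9.38, 8.55, 8.96 and 9.25 in RA KD1, against 3.83 and 4.32 in ESC KD1 (4.95 ± 0.25, adjusted p 7.32e-08). Its change in scrambled cells was similar at 4.57 ± 0.28, and the difference between the changes was 0.38 ± 0.37 (adjusted p 0.652). Rarg, a receptor that ESCs already express, fell, with 6.56, 6.32, 6.57 and 6.50 in RA KD1 against 7.69 and 7.49 in ESC KD1 (-1.10 ± 0.14, adjusted p 5.62e-05). The differences for Rara (-0.03) and Rxra (0.20) did not pass the threshold.

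Rarb and Cyp26a1 are the textbook direct targets of the retinoic acid receptors, and their promoters are shown for 1 element that these receptors bind. The element, called DR5, is a direct repeat of the hexamer AGGTCA with 5 bases between the copies, and it was searched on both strands, allowing A or G in place of the first letter and G or T in place of the third. The windows below run from 250 bases before the transcription start to 50 bases after it, in RefSeq's annotation of GRCm38.p6, 5′ to 3′ on the gene's own strand, at chr14:16575427-16575726 on the minus strand for Rarb and at chr19:37697558-37697857 on the plus strand for Cyp26a1. Capitals mark the hexamers.
Rarb: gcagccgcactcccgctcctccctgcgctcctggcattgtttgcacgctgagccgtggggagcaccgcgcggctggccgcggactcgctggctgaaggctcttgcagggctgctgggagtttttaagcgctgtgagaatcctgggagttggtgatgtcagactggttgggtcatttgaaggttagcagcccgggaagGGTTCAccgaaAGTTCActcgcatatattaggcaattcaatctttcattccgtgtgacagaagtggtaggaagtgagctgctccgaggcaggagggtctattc
Cyp26a1: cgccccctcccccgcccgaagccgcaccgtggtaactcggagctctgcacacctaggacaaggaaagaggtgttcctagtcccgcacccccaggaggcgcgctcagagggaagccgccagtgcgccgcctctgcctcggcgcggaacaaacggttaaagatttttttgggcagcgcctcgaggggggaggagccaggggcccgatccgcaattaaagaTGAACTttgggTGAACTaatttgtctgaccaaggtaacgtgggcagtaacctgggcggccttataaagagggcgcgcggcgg
In Rarb the match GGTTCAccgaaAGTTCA lay 53 to 37 bases before the start. In Cyp26a1 the match lay on the opposite strand, so that it reads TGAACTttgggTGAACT in the printed strand, 32 to 16 bases before the start. Of 27025 genes with a promoter window, 31 held a DR5 (0.115%), and among the 12988 tested genes 10287 had a window and 6 of these held one (0.0583%). Of the 23 tested retinoic acid genes 19 had a window, and these 2 held a match (10.5%). Among all tested genes with a window, 2 of the 3109 that were higher in RA KD1 held one (0.0643%), and these were again Rarb and Cyp26a1. Of the 2112 with a window that were lower, 1 held one (0.0473%). Repeats with 1 or 2 bases between the hexamers (DR1 and DR2) were searched in the same way. Of the 19 retinoic acid genes 0 held either. A DR1 was held by 0.257% of the higher genes, against 0.292% of all tested genes with a window. For DR2 these shares were 0.129% and 0.0972%. A match describes these letters only and does not show that a receptor was bound.

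The enzymes and transport proteins of the pathway mostly rose. Cyp26b1, a second enzyme that breaks retinoic acid down, stood at 8.29, 7.23, 7.15 and 7.58 in RA KD1, against 4.22 and 4.98 in ESC KD1 (2.96 ± 0.32, adjusted p 1.61e-05). Dhrs3, which turns retinaldehyde back into retinol, rose by 2.97 ± 0.32 (adjusted p 1.54e-05). Rdh10, which makes retinaldehyde from retinol, rose by 2.83 ± 0.18 (adjusted p 2.65e-07). Stra6, the membrane receptor that takes up retinol, rose by 3.13 ± 0.27 (adjusted p 3.19e-06). Its ligand Rbp4, the retinol carrier that liver and visceral endoderm secrete, stood at 8.55, 9.21, 9.15 and 8.96 in RA KD1, against 5.20 and 5.24 in ESC KD1 (3.74 ± 0.18, adjusted p 6.56e-08). In RA scrambled Rbp4 stood at 5.71 and 5.49, against 5.11 and 5.13 in ESC scrambled, so that the KD1 change was larger by 3.27 ± 0.27 (adjusted p 5.17e-05).

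Other members of the pathway rose less in KD1 than in scrambled cells. Whether a KD1 change differed from the scrambled change was tested with the interaction of line and treatment, by which 4.27% of all tested genes had a higher and 3.61% a lower KD1 change. Of the 23 retinoic acid genes 2 had a higher and 8 a lower KD1 change. These counts were 1 and 4 with RA KD1 replicates 1 and 2 alone. Aldh1a2, the enzyme that makes retinoic acid in mesoderm, stood at 4.33, 4.73, 4.77 and 4.99 in RA KD1, against 4.98 and 5.21 in ESC KD1. In RA scrambled it stood at 9.01 and 8.15, against 4.64 and 4.52 in ESC scrambled, and the KD1 change was lower by 4.39 log2 units (-4.39 ± 0.37, adjusted p 5.24e-05). The RA KD1 arrays overlapped or lay below the ESC KD1 arrays here, while both RA scrambled arrays were far above the ESC scrambled ones.

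The orphan receptor Nr2f1 (COUP-TFI) stood at 5.13, 4.70, 4.88 and 4.91 in RA KD1, against 3.87 and 3.58 in ESC KD1. It rose by 1.18 ± 0.15 in KD1, against 4.23 ± 0.17 in scrambled cells (interaction -3.05 ± 0.23, adjusted p 2.93e-05). Nr2f2 (COUP-TFII) rose by 3.07 ± 0.18 in KD1, against 5.18 ± 0.21 in scrambled cells (interaction -2.11 ± 0.28, adjusted p 0.000821). The retinoic acid carriers of the cytoplasm went apart in KD1 cells. Crabp1 fell (-1.99 ± 0.30, adjusted p 0.000179), with 6.52 to 6.63 in RA KD1 against 8.78 and 8.36 in ESC KD1. Crabp2, which delivers the ligand to its receptor, rose by 1.90 ± 0.31 (adjusted p 0.000317). Stra8, a retinoic acid target known for its role in meiosis, rose by 2.41 ± 0.17 (adjusted p 8.59e-07).

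Many Hox genes rose in KD1 cells, most of these by little. Of 39 in the list 27 were tested, 16 rose, 11 did not pass and 0 fell, and the median difference was 0.60. When RA KD1 replicates 3 and 4 were left out 10 rose. In scrambled cells 23 of the 27 rose and the median was 1.64. By the interaction 12 had a lower and 1 a higher KD1 change. Hoxa5 stood at 8.36, 7.16, 8.21 and 8.66 in RA KD1, against 4.24 and 3.85 in ESC KD1, and was the only tested Hox gene with a difference of more than 2 (4.05 ± 0.34, adjusted p 2.54e-06). It rose by 5.24 ± 0.39 in scrambled cells, and the changes did not differ past the threshold (interaction -1.20 ± 0.52, adjusted p 0.212).

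Hoxc5 stood at 5.80, 4.93, 5.10 and 5.57 in RA KD1, against 3.87 and 3.76 in ESC KD1 (1.54 ± 0.25, adjusted p 0.000305). In RA scrambled Hoxc5 stood at 8.65 and 8, against 3.61 and 3.72 in ESC scrambled, and its KD1 change was lower by the interaction (-3.12 ± 0.38, adjusted p 0.000431). Hoxb2 rose by 1.87 ± 0.17 in KD1, against 3.48 ± 0.19 in scrambled cells (interaction -1.61 ± 0.26, adjusted p 0.00304). Hoxb5 and Hoxd4 are examples that did not pass in KD1, with differences of 0.41 and 0.19 there against 2.38 and 1.85 in scrambled cells. Hoxc13, at the far end of its cluster, was the exception with a larger KD1 change, with 4.77, 4.55, 4.66 and 5.06 in RA KD1 against 3.30 and 3.22 in ESC KD1 (interaction 0.97 ± 0.24, adjusted p 0.0279). That call was lost without RA KD1 replicates 3 and 4 (0.87, adjusted p 0.0737) and when any single array of ESC KD1, RA scrambled or ESC scrambled was left out.

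**Figure D2:**
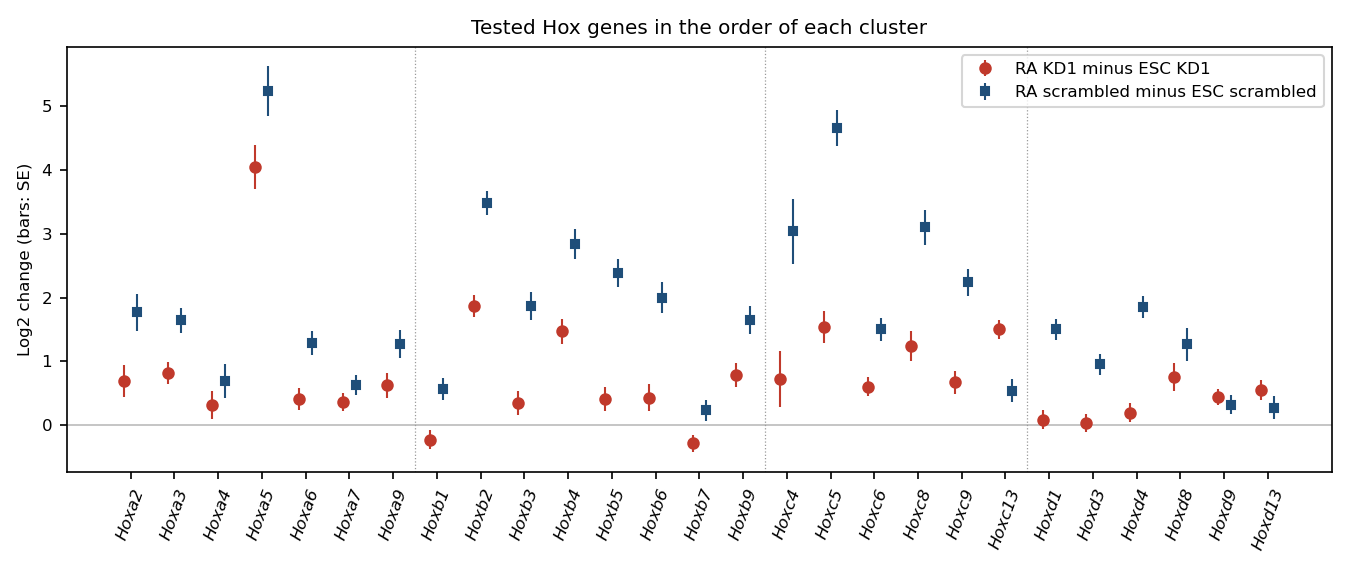
Log2 change with retinoic acid of the 27 tested Hox genes, in order along each of the 4 clusters (Hoxa to Hoxd, parted by dotted lines), in KD1 cells (circles) and scrambled cells (squares), with SE bars. Hoxa5 stands out in both lines, and most squares lie above their circles, while Hoxc13 lies the other way round.

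The proteins that bind DNA together with Hox factors were described from a list of 12, of which 10 were tested. Of these 6 rose and 0 fell, with a median of 0.91. Meis1, a homeobox cofactor, stood at 9.52, 9.12, 9.30 and 9.46 in RA KD1, against 5.18 and 4.97 in ESC KD1 (4.27 ± 0.16, adjusted p 1.32e-08). Meis2 rose by 3.33 ± 0.18 (adjusted p 1.22e-07), Pbx2 by 1.7, Meis3 by 1.54 and Pknox1 by 0.93. The KD1 changes of Meis1 and Meis2 were lower than in scrambled cells (interactions -1.15 ± 0.24 and -2.09 ± 0.28, adjusted p 0.0127 and 0.000905). Without RA KD1 replicates 3 and 4 the Meis1 interaction was -1.18 and no longer passed (adjusted p 0.0503). Cdx1 and Cdx2, caudal factors that act upstream of Hox genes, differed by -0.15 and 0.25 and did not pass.

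Pluripotency genes fell. Of 32 tested members 27 fell and 0 rose, with a median difference of -2.51, and 28 fell in scrambled cells with a median of -2.81. Pou5f1 (Oct4), the central factor of the network, stood at 6.44, 7.27, 6.66 and 6.45 in RA KD1, against 10.55 and 10.54 in ESC KD1 (-3.84 ± 0.21, adjusted p 1.38e-07). Zfp42 (Rex1), a marker of naive ESCs, stood at 6.01, 6.80, 7.12 and 6.92 in RA KD1, against 10.61 and 10.59 in ESC KD1 (-3.89 ± 0.26, adjusted p 4.84e-07). Esrrb, an orphan receptor of the naive state, stood at 3.90, 4.15, 5.17 and 4.76 in RA KD1, against 9.82 and 9.75 in ESC KD1 (-5.29 ± 0.32, adjusted p 2.28e-07). No RA KD1 array reached an ESC KD1 array for any of these 3 genes. The 2 groups of arrays did not overlap for 9634 of the 12988 tested genes, so this alone says little. For Esrrb it was also a condition for being named among the largest decreases.

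The largest decreases of the list were in Tdgf1 and Nr0b1. Tdgf1 (Cripto), a co-receptor for Nodal, stood at 4.20, 3.26, 5.89 and 5.48 in RA KD1, against 12.59 and 12.56 in ESC KD1, a 234-fold difference (-7.87 ± 0.56, adjusted p 7.34e-07). Nr0b1 (Dax1), a nuclear receptor that partners Oct4, stood at 4.05, 3.96, 6.17 and 5.07 in RA KD1, against 11.50 and 11.50 in ESC KD1 (-6.68 ± 0.57, adjusted p 3.07e-06). Nanog stood at 4.14, 4.71, 7.14 and 6.94 in RA KD1, against 10.51 and 10.58 in ESC KD1 (-4.81 ± 0.69, adjusted p 0.00014). For Tdgf1, Nr0b1 and Nanog replicates 3 and 4 stood above replicates 1 and 2. Sox2 behaved likewise, with 6.35, 6.35, 7.84 and 7.70 in RA KD1 against 11.07 and 10.87 in ESC KD1 (-3.91 ± 0.39, adjusted p 8.69e-06).

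The 5 members that did not pass were Klf4, Klf5, Lin28a, Sall4 and Tbx3, with differences of -0.64, 0.18, 0.33, 0.34 and 0.47. Klf4, one of the reprogramming factors, stood at 8.15 to 8.70 in RA KD1, against 9.31 and 9.08 in ESC KD1. Sall4, a zinc finger factor of ESCs and of extraembryonic endoderm, stood at 9.06, 9.37, 9.55 and 9.45 in RA KD1, against 8.95 and 9.09 in ESC KD1. In scrambled cells Sall4 fell (-1.35 ± 0.21), and the changes differed (interaction 1.69 ± 0.28, adjusted p 0.0037). Klf5 also differed by the interaction (1.57 ± 0.43, adjusted p 0.0449), a call lost under 13 of 24 other settings or sets of arrays, among them RA KD1 replicates 1 and 2 alone (1.18, adjusted p 0.11).

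Genes of the primed epiblast, the state that follows the naive one in the embryo, mostly fell as well. Of 18 tested members 12 fell, 2 rose and the median was -0.96. Etv5, an ETS factor downstream of FGF signals, fell by 4.52 log2 units (adjusted p 1.22e-07). Otx2, a homeobox factor of the epiblast and forebrain, stood at 4.32, 3.79, 4.10 and 4.12 in RA KD1, against 7.59 and 8.02 in ESC KD1 (-3.72 ± 0.31, adjusted p 2.65e-06). The members that rose were Sox4, an SRY-box factor (2.77 ± 0.21), and Fst, the activin antagonist follistatin, which the parietal endoderm list also holds.

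Many genes of the Nodal and FGF signals that ESCs make for themselves fell too. Of 17 Nodal and activin genes 10 fell and 3 rose, with a median of -1.19. Nodal itself stood at 5.23, 4.96, 5.40 and 5.52 in RA KD1, against 9.59 and 9.40 in ESC KD1 (-4.22 ± 0.25, adjusted p 1.79e-07). Its inhibitor Lefty2 stood at 3.19, 3.82, 3.23 and 3.44 in RA KD1, against 8.77 and 8 in ESC KD1 (-4.96 ± 0.28, adjusted p 1.33e-07). The related ligand Gdf3 fell by 5.25 log2 units (adjusted p 7.37e-08). Those that rose were Fst and the signal transducers Smad2 (1.65) and Smad3 (1.68).

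Of 24 FGF and ERK genes 13 fell and 4 rose, with a median of -0.84. Fgf4, the FGF that ESCs secrete, stood at 4.86, 5.47, 5.44 and 5.26 in RA KD1, against 9.92 and 9.94 in ESC KD1 (-4.67 ± 0.27, adjusted p 1.71e-07). Spry4, a feedback inhibitor of the pathway, fell by 4.53 log2 units, while its change in scrambled cells was -2.35 (interaction -2.18 ± 0.35, adjusted p 0.00332). Among the 4 that rose was Klb (beta-klotho), the co-receptor for endocrine FGFs, which stood at 8.61, 8.78, 8.76 and 8.48 in RA KD1, against 5.22 and 4.89 in ESC KD1 (3.61 ± 0.20, adjusted p 1.39e-07). Its receptor partner Fgfr4 rose by 1.62 ± 0.22 (adjusted p 7.79e-05). Both changes were larger than in scrambled cells (interactions 2.95 ± 0.31 and 1.63 ± 0.33, adjusted p 0.000179 and 0.0114). For Fgfr4 the interaction without RA KD1 replicates 3 and 4 was 1.47 and did not pass (adjusted p 0.0586). The others that rose were Fgf10 (1.84) and the ERK phosphatase Dusp6 (1.03).

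Several endoderm transcription factors rose in KD1 cells, most of these by more than in scrambled cells. Of 14 tested members 7 rose, 7 did not pass and 0 fell in KD1, with a median of 0.72, and 6 had a higher and 1 a lower KD1 change by the interaction. With RA KD1 replicates 1 and 2 alone, 7 rose and 6 had a higher KD1 change. Gata4 stood at 6.47 and 6.30 in RA scrambled, against 5.25 and 5.36 in ESC scrambled, so that its KD1 change was larger by 3.78 ± 0.26 (adjusted p 1.86e-05). Sox7 stood at 5.02 and 5.08 in RA scrambled, against 4.88 and 4.47 in ESC scrambled, and its KD1 change was larger by 3.82 ± 0.64 (adjusted p 0.00387).

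Sox17, an HMG-box factor of primitive and definitive endoderm, stood at 8.56, 8.95, 9.23 and 9.12 in RA KD1, against 4.89 and 4.82 in ESC KD1 (4.11 ± 0.21, adjusted p 7.37e-08). In scrambled cells it rose by 1.01 ± 0.24 (interaction 3.10 ± 0.32, adjusted p 0.000149). Foxa2, a forkhead factor of endoderm, stood at 8.27, 8.82, 8.98 and 8.74 in RA KD1, against 4.95 and 5.35 in ESC KD1 (3.55 ± 0.21, adjusted p 2.28e-07), and its KD1 change was also larger (interaction 2.81 ± 0.33, adjusted p 0.000364). Gata6, which with Gata4 specifies primitive endoderm, was different. It stood at 10.70, 10.83, 10.95 and 10.94 in RA KD1, against 6.91 and 6.95 in ESC KD1 (3.92 ± 0.23, adjusted p 2.04e-07). Its rise in scrambled cells was similar at 3.67 ± 0.27 (interaction 0.25 ± 0.36, adjusted p 0.773). The levels were not alike: Gata6 stood at 8.73 and 9.15 in RA scrambled, against 5.77 and 4.76 in ESC scrambled, below the KD1 arrays at both stages. Hnf4a, a factor of visceral endoderm, spread from 4.91 to 6.43 in RA KD1, against 4.92 and 4.60 in ESC KD1, and did not pass (0.79, adjusted p 0.0534).

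Genes of the parietal endoderm and its basement membrane had the highest median of the 32 lists. The lists were written with earlier results of these data known, and this one holds the marker Krt19 and Fst. Its rank is therefore no independent support. Of 24 tested members 21 rose and 1 fell, and their median difference was 2.50. In scrambled cells 11 rose, 2 fell and the median was 0.67. By the interaction 14 had a higher and 0 a lower KD1 change. With RA KD1 replicates 1 and 2 alone, 18 rose and 12 had a higher KD1 change. The paired type IV collagen genes moved together: Col4a1 stood at 11.36, 11.59, 11.75 and 11.53 in RA KD1, against 7.58 and 7.27 in ESC KD1 (4.13 ± 0.22, adjusted p 1.05e-07), and Col4a2 rose by 4.24 ± 0.15 (adjusted p 8.8e-09). Their changes in scrambled cells were 1.43 and 1.69 (interactions 2.70 ± 0.34 and 2.55 ± 0.23, adjusted p 0.000565 and 6.02e-05).

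The 3 chains of laminin-111, the first laminin of the embryo, rose together. Lama1 stood at 12.04, 12.32, 12.55 and 12.44 in RA KD1, against 8.73 and 8.90 in ESC KD1 (3.52 ± 0.27, adjusted p 1.22e-06). Lamb1 rose by 2.55 ± 0.19 (adjusted p 9.25e-07) and Lamc1 by 2.39 ± 0.29 (adjusted p 3.67e-05). Each of the 3 had a larger KD1 change by the interaction, at 2.68, 2.23 and 2.87 (adjusted p 0.00216, 0.000647 and 0.00234). Pth1r, the receptor for parathyroid hormone-related protein and an early gene of parietal endoderm, stood at 9.76, 10.15, 10.55 and 10.06 in RA KD1, against 5.58 and 5.77 in ESC KD1 (4.45 ± 0.21, adjusted p 6.48e-08).

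Plat, the tissue plasminogen activator that parietal endoderm cells secrete, stood at 9.67, 9.76, 10.32 and 10.30 in RA KD1, against 5.15 and 4.81 in ESC KD1 (5.03 ± 0.24, adjusted p 6.73e-08). It rose by 4.08 ± 0.28 in scrambled cells (interaction 0.95 ± 0.37, adjusted p 0.166). Snai1, a repressor of E-cadherin, rose by 3.11 ± 0.16, and the collagen chaperone Serpinh1 by 3.21 ± 0.17 (adjusted p 9.69e-08 and 1.18e-07). The member that fell was Fn1, fibronectin, with 9.79, 9.87, 9.67 and 9.92 in RA KD1 against 11.68 and 11.83 in ESC KD1 (-1.94 ± 0.22, adjusted p 2.23e-05).

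Visceral endoderm genes gave a mixed picture. Of 26 in the list 15 were tested, 7 rose and 4 fell, with a median of 0.83. Afp, Alb, Apoa4, Apob and the 3 fibrinogen genes, secreted products of mature visceral endoderm or liver, were among the 9 on the array that did not pass the filter on dim genes. Those that rose included the endocytic receptors Lrp2 (megalin, 2.19 ± 0.38, adjusted p 0.000533) and Cubn (cubilin, 1.34 ± 0.47, adjusted p 0.0325). Cubn stood at 8.77, 9.47, 7.80 and 7.60 in RA KD1, against 7.10 and 7.03 in ESC KD1, so that replicates 1 and 2 were the higher pair. Their adaptor Dab2 rose by 3.66 ± 0.20 on its brighter probe set, but a second probe set differed by 0.10. Apoe, which ESCs express, fell by 4.22 log2 units (adjusted p 2.93e-08). Trf, Amn and Apoa1 also fell (-1.64, -0.84 and -0.43). Ttr (transthyretin) stood at 4.66, 5.68, 4.30 and 4.12 in RA KD1, against 3.77 and 3.98 in ESC KD1, and did not pass (adjusted p 0.0585).

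**Figure D3:**
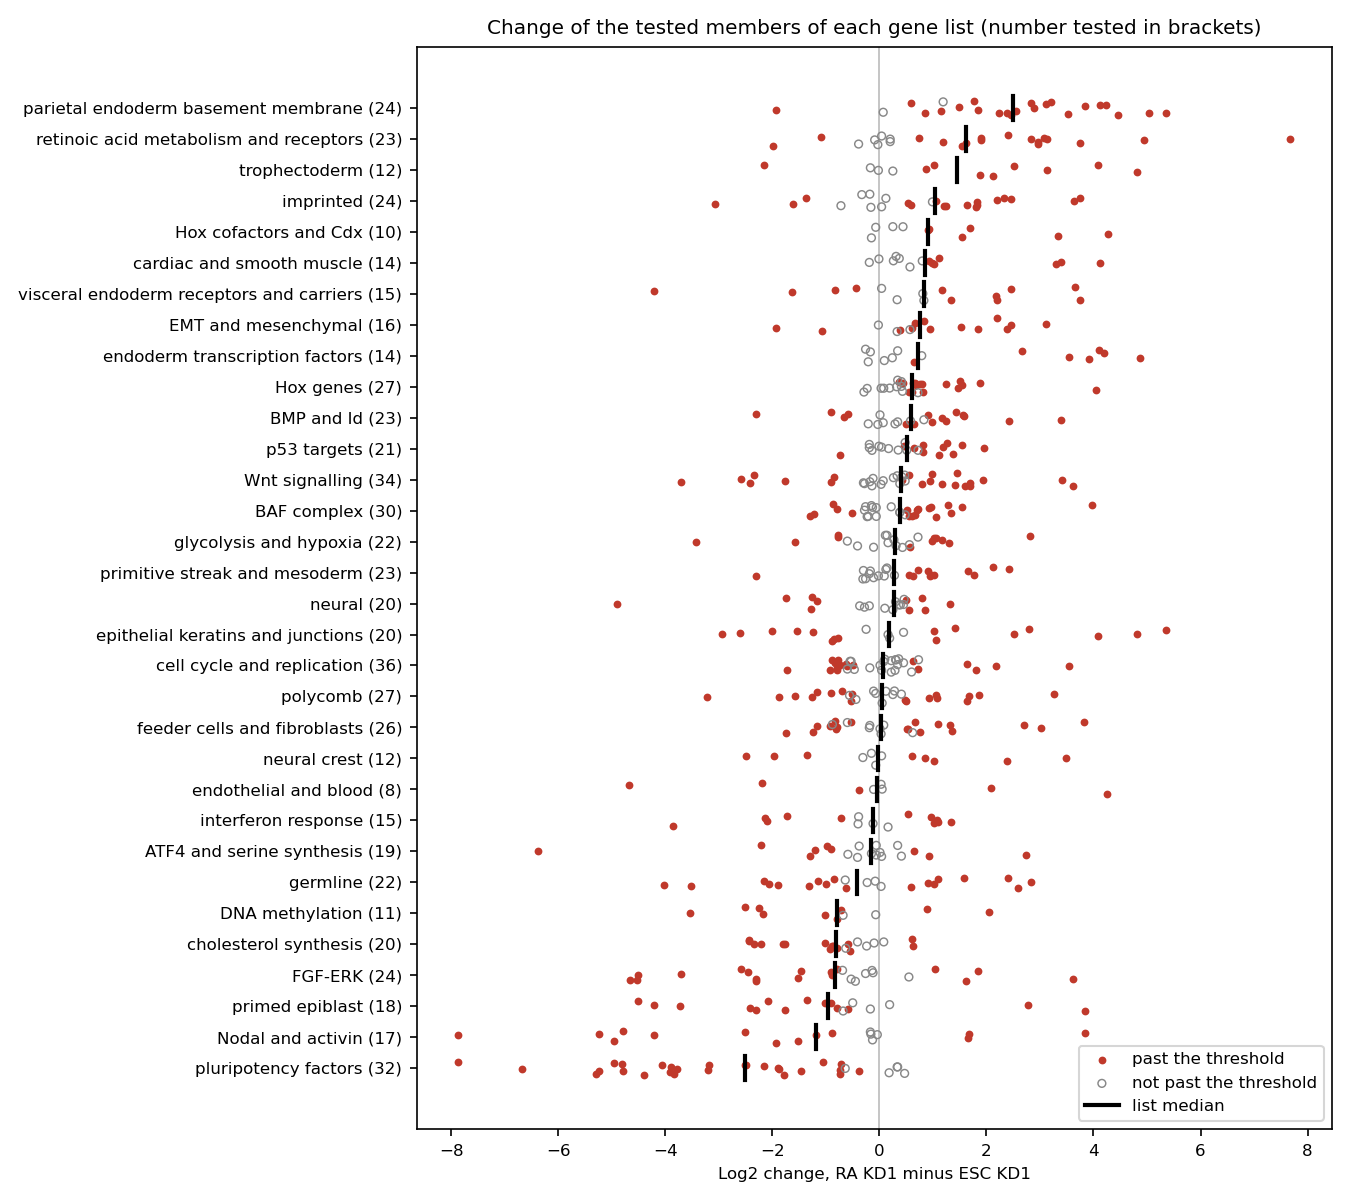
Log2 difference between RA KD1 and ESC KD1 of each tested member of 32 gene lists, ordered by median (black bars). Filled points passed the threshold and open points did not. Parietal endoderm and retinoic acid genes have the highest medians (2.50 and 1.62) and pluripotency and Nodal genes the lowest (-2.51 and -1.19).

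Epithelial genes went both ways. Of 20 tested members 8 rose and 8 fell, and their median difference was 0.18. The simple keratins rose: Krt18 stood at 11.38, 11.20, 10.55 and 10.67 in RA KD1, against 6.12 and 6.14 in ESC KD1 (4.82 ± 0.33, adjusted p 6.1e-07), and its partner Krt8 rose by 4.08 ± 0.30 (adjusted p 1.01e-06). Krt7 rose by 2.52 ± 0.32. Cdh1 (E-cadherin), the main adhesion protein of ESCs, stood at 9.61, 9.58, 8.89 and 9.10 in RA KD1, against 11.25 and 11.36 in ESC KD1 (-2.01 ± 0.26, adjusted p 6.03e-05). Epcam fell by 2.61 log2 units, and the claudins Cldn4, Cldn3 and Cldn7 also fell (-2.95, -1.55 and -0.85).

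Of 16 genes of epithelial-mesenchymal transition 11 rose and 2 fell in KD1, with a median of 0.75, against 1.82 in scrambled cells. Cdh2 (N-cadherin) rose by 2.45 and Twist1 by 2.38, and Vim rose by 1.85. By the interaction Snai1 had a larger KD1 change (2.68 ± 0.25, adjusted p 7.89e-05) and Snai2 (Slug), Zeb1 and Foxc2 had smaller ones. The Zeb1 call was lost under 15 of the 24 alternatives and the Snai2 call under 5. Foxc2, a forkhead factor of mesoderm, stood at 3.63 to 3.77 in RA KD1, against 3.30 and 3.38 in ESC KD1. In RA scrambled Foxc2 stood at 7.04 and 7.15, against 3.38 and 3.47 in ESC scrambled (interaction -3.28 ± 0.18, adjusted p 8.36e-06).

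Genes of other lineages were checked in the same way. Of 20 tested neural genes 5 rose and 5 fell around a median of 0.28. By the interaction 4 had a lower and 0 a higher KD1 change. Ncam1, a neural adhesion molecule, stood at 5.67, 5.63, 5.68 and 5.90 in RA KD1, against 7.11 and 6.86 in ESC KD1 (-1.27 ± 0.24), while it rose by 1.34 ± 0.27 in scrambled cells (interaction -2.60 ± 0.36, adjusted p 0.00114). Stmn2 fell by 4.90 log2 units and Nes (nestin) rose by 1.32. Pax6 differed by 0.39 in KD1, which did not pass, and rose by 2.11 in scrambled cells (interaction -1.72 ± 0.42, adjusted p 0.0282). That interaction did not pass with RA KD1 replicates 1 and 2 alone (-1.62, adjusted p 0.103) and was lost under 10 of the 24 alternatives.

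Of 23 primitive streak and mesoderm genes 11 rose and 1 fell, with a median of 0.28. Bmp4, the member that fell, stood at 7.69, 7.47, 7.76 and 8.29 in RA KD1, against 10.27 and 9.96 in ESC KD1 (-2.31 ± 0.29, adjusted p 4.58e-05). Msx2, a homeobox target of BMP signals, rose by 2.42 and Tcf21 by 2.13. By the interaction 6 of these genes had a lower and 2 a higher KD1 change. Of 12 neural crest genes 5 rose and 3 fell, with a median of -0.02 in KD1 and 1.55 in scrambled cells. With cyclic loess scaling the KD1 median was 0.06.

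Of 12 tested trophectoderm genes 8 rose and 1 fell, with a median of 1.45. The rises were led by keratins shared with endoderm, and Gata3, a trophectoderm factor, stood at 7.63, 7.37, 7.31 and 7.44 in RA KD1, against 4.18 and 4.43 in ESC KD1 (3.13 ± 0.23, adjusted p 1.03e-06). In scrambled cells the list median was 1.95. Gata3 stood at 8.64 and 8.80 in RA scrambled, against 4.44 and 4.05 in ESC scrambled. Its KD1 change was lower by the interaction (-1.34, adjusted p 0.0393), a call lost under 13 of the 24 alternatives. Elf5, Esx1 and Ascl2, which mark the trophoblast more strictly, did not pass the filter on dim genes. Cdx2, Eomes and Hand1 were tested and differed by 0.25, -0.17 and -0.02, none of which passed. Of 14 cardiac and smooth muscle genes 7 rose and 0 fell, with a median of 0.86. Tagln stood at 11.04, 10.81, 10.52 and 10.73 in RA KD1, against 7.08 and 6.24 in ESC KD1 (4.12 ± 0.22, adjusted p 1.04e-07). Acta2 (smooth muscle actin) rose by 3.40 and Cnn1 by 3.29. Nkx2-5 and Tnnt2, markers of heart muscle, differed by -0.19 and -0.01 and did not pass.

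Feeder and fibroblast genes were checked because ESCs were grown on fibroblasts. Of 26 tested members 10 rose and 8 fell, and their median difference was 0.02, which was -0.02 with cyclic loess scaling. Under that scaling the balance turned, with 7 that rose and 10 that fell, and on RA KD1 replicates 1 and 2 alone 8 rose and 4 fell. The mean level of the 26 was 6.99 to 7.31 on the RA KD1 arrays, against 7.22 and 6.54 on the ESC KD1 arrays. Replicate 1 of ESC KD1 was thus within the range of RA KD1 and replicate 2 below it. Col1a1, the main collagen of fibroblasts, stood at 8.59, 8.5, 8.14 and 8.83 in RA KD1, against 9 and 7.87 in ESC KD1 (adjusted p 0.861). Thy1, a surface marker of fibroblasts, fell, with 4.92, 4.93, 5.15 and 5.53 in RA KD1 against 7.20 and 6.57 in ESC KD1 (-1.75 ± 0.25, adjusted p 0.000151). The other members that fell were Col1a2, Col6a1, Col6a3, Mmp2, Pdgfrb, Postn and Thbs2. Lum was dim on these arrays and was not tested. Members that rose most were Pdgfra (3.82 ± 0.24), which primitive endoderm also expresses, Timp2 (3.01 ± 0.30) and Timp3 (2.70 ± 0.21). Without ESC KD1 replicate 1 the differences of Tagln, Acta2 and Timp3 were 4.54, 3.90 and 2.89, and without replicate 2 they were 3.70, 2.89 and 2.51, each past the threshold (highest adjusted p 0.000428, for Acta2). The part of feeder RNA in the other values was not tested.

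Imprinted genes, which are expressed from 1 parental copy, rose more often than they fell in both lines. Of 24 tested members 14 rose, 7 did not pass and 3 fell in KD1, against 13 that rose and 2 that fell in scrambled cells. The median difference was 1.03 in KD1 and 1.63 in scrambled cells, and by the interaction 7 had a lower and 1 a higher KD1 change. Igf2, a growth factor, stood at 10.03, 10.07, 9.60 and 9.81 in RA KD1, against 6.43 and 6.05 in ESC KD1 (3.64 ± 0.23, adjusted p 3.07e-07). Peg3 rose by 3.75 ± 0.23. Dlk1, a transmembrane ligand related to Delta, stood at 7.75, 7.22, 7.08 and 7.70 in RA KD1, against 6.28 and 6.11 in ESC KD1 (1.24 ± 0.20). In RA scrambled Dlk1 stood at 11.36 and 11.68, against 6.09 and 6.08 in ESC scrambled, and its KD1 change was lower (interaction -4.20 ± 0.30, adjusted p 2.88e-05). Plagl1, a zinc finger factor of the imprinted network, rose by 1.64 in KD1 and 4.84 in scrambled cells (interaction -3.20 ± 0.33, adjusted p 0.000179). The members that fell in KD1 were Phlda2 (-3.08), Slc22a18 (-1.61) and Meg3 (-1.38).

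Among chromatin genes, those of the DNA methylation list mostly fell, 7 of 11 against 2 that rose, with a median of -0.80. Tet1, which oxidises methylcytosine in ESCs, stood at 6.34, 6.52, 6.16 and 6.11 in RA KD1, against 9.80 and 9.86 in ESC KD1 (-3.55 ± 0.24, adjusted p 4.98e-07). Dnmt3b, a de novo methyltransferase, stood at 7.45, 7.34, 7.25 and 7.02 in RA KD1, against 8.15 and 8.41 in ESC KD1 (-1.01 ± 0.26), and fell further in scrambled cells (-3.15 ± 0.30, interaction 2.14 ± 0.39, adjusted p 0.00699). Tet3 rose by 2.05 on its brighter probe set and differed by 0.46 on a second one, and Mbd3 rose by 0.89.

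Polycomb genes, whose products repress developmental genes including Hox genes, went both ways, with 9 rising and 9 falling of 27 and a median of 0.05 (-0.04 with cyclic loess scaling). Phc1, a subunit of PRC1, stood at 6.55, 6.82, 6.88 and 6.95 in RA KD1, against 9.97 and 10.09 in ESC KD1 (-3.23 ± 0.15, adjusted p 6.48e-08). Jarid2 and Mtf2, which help PRC2 to its sites, fell too (-1.88 and -1.58). Pcgf5, a subunit of a variant PRC1, stood at 9.88, 9.89, 9.57 and 9.75 in RA KD1, against 6.76 and 6.23 in ESC KD1, and its KD1 change was larger than the scrambled one (interaction 2.68 ± 0.40, adjusted p 0.00211).

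Of 30 tested genes of the BAF complex, to which Smarcd1 belongs, 13 rose and 5 fell in KD1, with a median of 0.38. Smarca2 (BRM), an ATPase of the complex found in differentiated cells, stood at 7.96, 8.01, 7.88 and 8.17 in RA KD1, against 4.23 and 3.86 in ESC KD1 (3.97 ± 0.19, adjusted p 6.56e-08). Its change in scrambled cells was 1.82 ± 0.22 (interaction 2.15 ± 0.29, adjusted p 0.000982). The alternative ATPase Smarca4 (BRG1) rose by 0.55. The paralogs of the target, Smarcd3 (BAF60c) and Smarcd2 (BAF60b), rose by 1.55 ± 0.36 and 0.61 ± 0.21 (adjusted p 0.00369 and 0.0305), and neither change differed from that in scrambled cells past the threshold (interactions 0.10 ± 0.55 and -0.20 ± 0.32, adjusted p 0.956 and 0.81). Apart from Smarcd1, the members that fell were Bicral (-1.22), Actl6a (-0.87), Bcl7a (-0.79) and Bcl11b (-0.52).

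BMP and Wnt genes changed in both directions. Of 23 BMP and Id genes 11 rose and 4 fell, with a median of 0.58. Bmp2, a BMP ligand, stood at 7, 7.13, 7.62 and 7.57 in RA KD1, against 3.97 and 3.89 in ESC KD1 (3.40 ± 0.31, adjusted p 4.35e-06), opposite to Bmp4 above. Both KD1 changes differed from the scrambled changes (interactions 3.12 ± 0.47 for Bmp2 and -2.70 ± 0.44 for Bmp4, adjusted p 0.00207 and 0.00322). For Bmp4 the lines already differed before retinoic acid, with 10.27 and 9.96 in ESC KD1 against 8.81 and 7.86 in ESC scrambled. After it every RA KD1 array stood below every RA scrambled array. Of 34 Wnt genes 14 rose and 7 fell, with a median of 0.40. Frzb, a secreted Wnt inhibitor, stood at 7.01, 7.38, 7.91 and 7.63 in RA KD1, against 3.90 and 3.84 in ESC KD1, and its KD1 change was larger (interaction 3.82 ± 0.36, adjusted p 8.58e-05). Its relative Sfrp1 did the opposite, with 5.68, 5.75, 5.48 and 5.43 in RA KD1 against 7.92 and 7.93 in ESC KD1. In RA scrambled Sfrp1 stood at 9.34 and 9.87, against 7.65 and 7.53 in ESC scrambled (interaction -4.36 ± 0.31, adjusted p 2.88e-05). Notum, an enzyme that inactivates Wnt proteins, fell by 3.70 log2 units, and the transcription factor Tcf7l2 rose by 3.41 ± 0.15.

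Cell cycle genes had a median of 0.06 (-0.06 with cyclic loess scaling), and of 36 tested 6 rose and 11 fell. Without the KD2 arrays in the fit these counts were 12 and 15. Ccnd2 (cyclin D2) rose by 3.55 ± 0.28, with 11.18, 11.06, 10.48 and 10.90 in RA KD1 against 7.56 and 7.16 in ESC KD1 (adjusted p 1.8e-06). Ccne1 (cyclin E1) fell by 1.72 log2 units. The inhibitors Cdkn2b, Cdkn1c, Cdkn2a, Cdkn1b and Cdkn2c rose by 2.17, 1.81, 1.64, 0.72 and 0.63.

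The 12 largest increases among genes with known names held, beside those above, Vnn1, Tax1bp3, Gpx3, Chst15, Cryab and Slc25a24. Vnn1, a pantetheinase of the cell surface, stood at 9.25, 9.19, 8.84 and 9.06 in RA KD1, against 3.95 and 4.25 in ESC KD1 (4.98 ± 0.17, adjusted p 8.8e-09). Tax1bp3, a small PDZ protein, stood at 11.10, 11.34, 11.26 and 11.14 in RA KD1, against 6.29 and 6.31 in ESC KD1 (4.91 ± 0.30, adjusted p 2.49e-07). Gpx3, a secreted glutathione peroxidase, stood at 10.47, 10.68, 10.56 and 10.70 in RA KD1, against 6.37 and 5.74 in ESC KD1 (4.55 ± 0.26, adjusted p 1.39e-07). In each of these the RA KD1 arrays lay close together. That they did not overlap ESC KD1 was a condition for being named among the largest changes. Cryab, a small heat shock protein, rose by 4.54 ± 0.15, and Slc25a24, a mitochondrial carrier, by 4.51 ± 0.27.

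The 12 largest decreases held, beside genes above, Trh, Slc7a3, Aqp3, Jam2, Pla2g1b, Zfp640 and Zfp980. Trh, which encodes thyrotropin-releasing hormone and is high in ESCs, stood at 4.34, 3.85, 4.63 and 4.33 in RA KD1, against 12.11 and 12.26 in ESC KD1, a 239-fold difference (-7.90 ± 0.26, adjusted p 8.8e-09). Its change in scrambled cells was the same to 2 decimals (-7.90 ± 0.30). Slc7a3, a cationic amino acid transporter, fell by 6.39 log2 units in KD1 and by 6.42 in scrambled cells (interaction 0.03 ± 0.40, adjusted p 0.985). Aqp3, a water and glycerol channel, fell by 5.11 and Jam2, a junction protein, by 5.10 log2 units. Pla2g1b, a secreted phospholipase, fell by 5 log2 units. Zfp640 and Zfp980 (-5.66 and -5.03) belong to zinc finger families with near-identical copies, so their probe sets may read more than 1 gene.

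Over all tested genes, KD1 and scrambled changes, which share no array, correlated at a Pearson r of 0.784. This is a description across genes, which are not independent replicates. Of the 3819 genes that rose in KD1, 2259 also rose and 48 fell in scrambled cells. Of the 2777 that fell in KD1, 1635 also fell and 31 rose. By the interaction 555 genes had a higher and 469 a lower KD1 change, 1024 in all. The KD2 arrays correlated at 0.918 with each other, below the ESC KD1 pair and the RA KD1 arrays, and without either of them the count was 2399. It was 484 and 500 without ESC KD1 replicate 1 and 2, 648 and 666 without ESC scrambled replicate 1 and 2, and 519 and 456 without RA scrambled replicate 1 and 2. With RA KD1 replicates 1 and 2 alone it was 569.

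**Figure D4:**
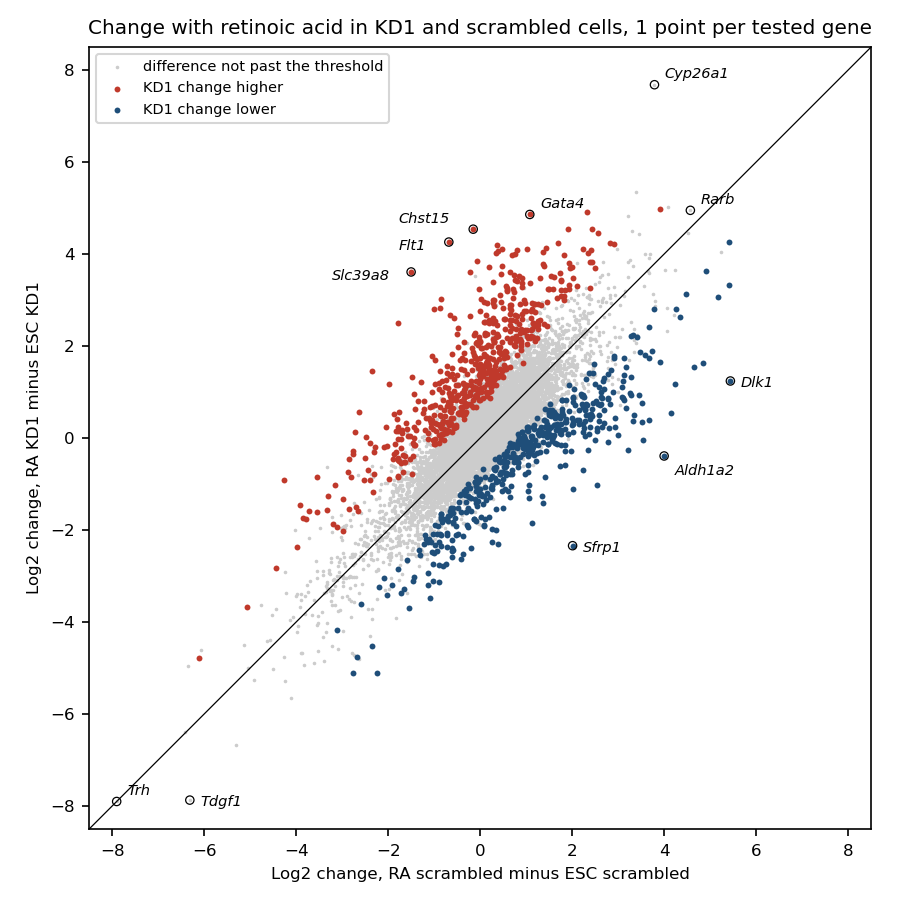
Log2 change with retinoic acid in KD1 cells (vertical axis) and scrambled cells (horizontal axis), 1 point per tested gene, with equal changes on the diagonal. Red points had a higher and blue points a lower KD1 change by the interaction (555 and 469 genes), and Pearson's r over all points was 0.784.

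None of the 5 genes with the largest higher KD1 change rose in scrambled cells. Slc39a8, a zinc and manganese importer, stood at 8.67, 8.67, 8.67 and 8.68 in RA KD1, against 4.99 and 5.13 in ESC KD1. In RA scrambled it stood at 6.15 and 5.80, against 7.34 and 7.61 in ESC scrambled, which gave the largest interaction of the genes eligible to be named (5.11 ± 0.31, adjusted p 9.31e-06). Flt1, a receptor for VEGF, stood at 9.83, 9.98, 9.38 and 9.39 in RA KD1, against 5.48 and 5.28 in ESC KD1 (interaction 4.95 ± 0.50, adjusted p 0.000141). The arrays of the 2 groups were more than 3 log2 units apart for both genes.

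Chst15, a sulfotransferase that acts on chondroitin sulfate, stood at 9.71, 9.96, 10.10 and 10.16 in RA KD1, against 5.41 and 5.47 in ESC KD1 (interaction 4.69 ± 0.40, adjusted p 5.76e-05). Car2, a carbonic anhydrase, rose by 2.50 in KD1 and fell by 1.79 in scrambled cells (interaction 4.28 ± 0.35, adjusted p 4.64e-05). Fst, which binds and blocks activin, stood at 11.12, 11.30, 11.88 and 11.78 in RA KD1, against 7.90 and 7.47 in ESC KD1. In RA scrambled Fst stood at 7.44 and 7.60, against 7.78 and 7.38 in ESC scrambled, groups that overlapped (interaction 3.90 ± 0.35, adjusted p 6.59e-05).

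The 5 genes with the largest lower KD1 change were Aldh1a2, Sfrp1 and Dlk1, described above, and Crispld2 and Tgfbi. Crispld2, a secreted protein of mesenchyme, stood at 5.77, 5.58, 5.44 and 6.04 in RA KD1, against 5.65 and 5.86 in ESC KD1. In RA scrambled it stood at 8.83 and 9.83, against 5.80 and 5.80 in ESC scrambled (interaction -3.57 ± 0.38, adjusted p 0.00018). Tgfbi, an extracellular matrix protein induced by TGF-beta, differed by -1.01 ± 0.33 in KD1 and by 2.53 ± 0.38 in scrambled cells (interaction -3.55 ± 0.50, adjusted p 0.00138).

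The scrambled side of these comparisons holds an uneven pair. ESC scrambled replicate 1 stood at 8.90 for Cyp26a1 and 8.22 for Krt19, against 4.39 and 5.49 on replicate 2. It was also higher for Krt8 (9.35 against 8.10), Krt18 (8.11 against 7.09) and Flt1 (7.08 against 5.63). The interactions of Cyp26a1 (3.90 ± 1.26) and Krt19 (1.95 ± 0.89) did not pass the threshold (adjusted p 0.0904 and 0.245). The KD1 changes of these genes do not use the ESC scrambled arrays, except through the shared estimate of the spread, the choice of probe set and the filter on dim genes.

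The 4 RA KD1 arrays fell into pairs, with replicates 3 and 4 alike and replicates 1 and 2 alike. Replicates 3 and 4 both stood above replicates 1 and 2 for 2772 tested genes (21.3%) and both below them for 3991 (30.7%). Most of these differences were small: replicates 3 and 4 were higher by at least 1 log2 unit in the mean for 55 tested genes (0.423%) and lower for 28 (0.216%). The main fit treated the 4 arrays as separate replicates. Genes of chromosome 14 were higher on replicates 3 and 4 by a median of 0.32, and 91.1% of 450 tested genes were higher there. On chromosome 1 the median was 0.18, with 83.0% of 700 genes higher. On each of the other chromosomes listed the median lay between -0.07 and -0.02. Gata4, Sox7, Rarb and Otx2 lie on chromosome 14, and Sox17, Lefty2 and Lamc1 on chromosome 1. The median KD1 change of chromosome 14 genes was 0.11 with replicates 1 and 2 and 0.47 with replicates 3 and 4. Of the genes just named, Gata4 and Sox17 stood at 10.45 or higher and 8.56 or higher on each of the 4 arrays, far above ESC KD1. With the genes of chromosomes 1 and 14 left out, 5980 genes passed in KD1 and 938 by the interaction. With replicates 1 and 2 alone the differences were 4.65 for Gata4, 3.43 for Sox7, 4.88 for Rarb and 3.90 for Sox17, all past the threshold (adjusted p 8.92e-06 or less). The labels do not say what parts the replicates, and the cause was not tested.

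**Figure D5:**
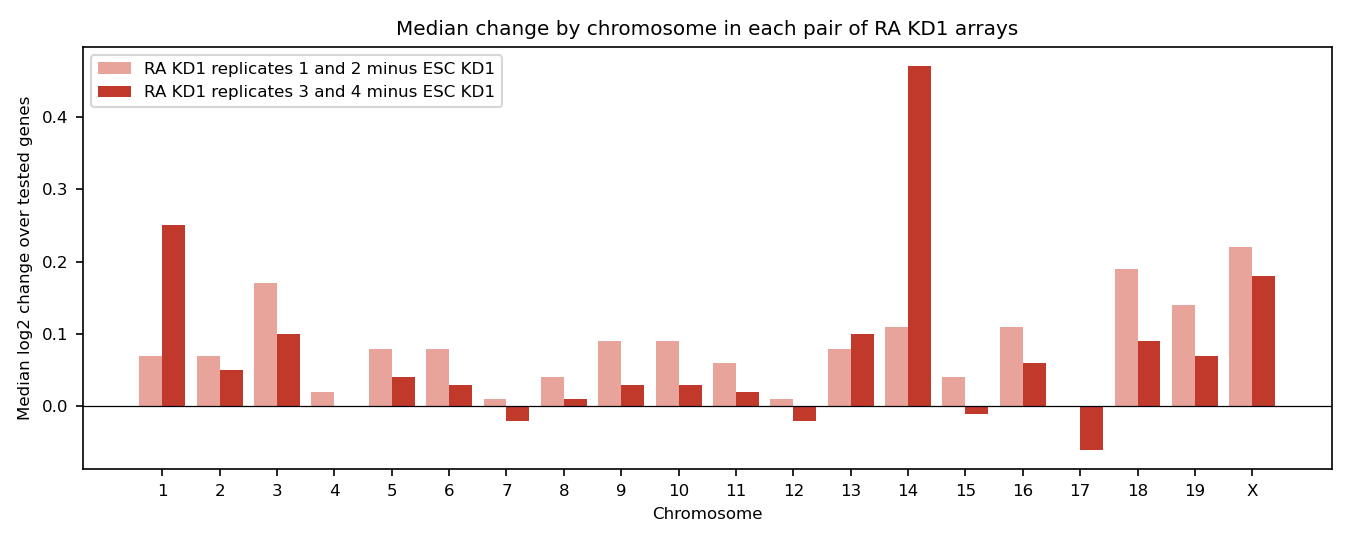
Median log2 change over the tested genes of each chromosome, for RA KD1 replicates 1 and 2 (light bars) and replicates 3 and 4 (dark bars), each minus the mean of ESC KD1. The pairs part on chromosome 14 (0.11 and 0.47) and chromosome 1 (0.07 and 0.25).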

How the data were processed

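Biotin-labelled cRNA of each of the 12 samples went onto its own Affymetrix array. The authors deposited 1 log2 value per probe set and array, made with RMA per the submitters' processing notes. RMA version and settings were not given in the sources used here. Array medians lay between 4.73 and 5.09, and the main analysis used the values as deposited. They carry no detection call.

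Of 35556 probe sets 21789 had exactly 1 symbol in the platform's gene table, 1621 had several and 12146 were not listed there. Entrez identifiers matched RefSeq's gene table for 21698 of those with 1 symbol, which changed 0 symbols. A gene with several probe sets (999 genes) was read from the brightest on average. The filter kept genes that exceeded percentile 40 of an array's named genes on 2 or more arrays.

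A group-means model over all 12 arrays was fitted with limma 3.58.1 in R 4.3.3 (7 residual degrees of freedom, prior 4.58), tested on simulated data. Contrasts were RA KD1 minus ESC KD1, RA scrambled minus ESC scrambled, and their difference (the interaction), two-sided. Pooling the groups lets the KD2 arrays add to the spread.

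The members and gene lists were chosen with earlier results of these data known, so no pattern here is independent support. Named genes are Smarcd1, the markers, the 12 largest increases and decreases without overlap (predicted genes, small RNAs and olfactory receptors left out), the 5 largest interactions each way, and up to 5 members of each list with the largest changes, plus those that moved against it. Other named genes were chosen after their values were seen.

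Deviations of same-numbered samples correlated at 0.02 between ESC KD1 and RA KD1, and at -0.18 to 0.24 over all pairs of groups. The main fit therefore did not pair the samples by number. These correlations cannot exclude that same-numbered samples were handled together. Alternatives were other filters, scalings, error models, sets of arrays, thresholds, probe set rules and a replicate block. Leaving out chromosomes 1 and 14, and the list counts and single-gene interactions under the alternatives, were added after seeing the data. Promoter windows come from RefSeq (GRCm38.p6).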

Additional observations from a re-analysis of the deposited data

Results flagged for a closer look

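Of 228 genes named by the rule for naming genes, 86 had an interaction past the threshold. Examples from the lists stand with their lists above. Among the 35 genes named for the target, the markers or the largest changes and interactions, 18 qualified: their KD1 change differed from the scrambled change by limma's interaction test (adjusted p under 0.05). Their differences, KD1 change minus scrambled change in log2 units, fall on both sides. Higher KD1 changes were those of the transporter Slc39a8 (5.11), the VEGF receptor Flt1 (4.95), the sulfotransferase Chst15 (4.69), the carbonic anhydrase Car2 (4.28), follistatin Fst (3.90), the endoderm factors Sox7 (3.82) and Gata4 (3.78), the peroxidase Gpx3 (2.64), Tax1bp3 (2.59), the heat shock protein Cryab (2.10) and the pantetheinase Vnn1 (1.06). Lower KD1 changes were those of Aldh1a2 (-4.39), which makes retinoic acid, the Wnt inhibitor Sfrp1 (-4.36), the imprinted ligand Dlk1 (-4.20), the secreted proteins Crispld2 (-3.57) and Tgfbi (-3.55), the junction protein Jam2 (-2.84) and the water channel Aqp3 (-2.34).

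Slc39a8, Car2 and Sfrp1 moved in opposite directions in the lines, each past the threshold in both. Tgfbi fell in KD1 and rose in scrambled cells. Dlk1 rose in both, and Aqp3 and Jam2 fell in both, by different amounts. Of the same 35 genes checked for an RA KD1 array far from the other 3, 0 had one. Chance alone gives such a sample in about 1 in 20 groups.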

How the results depend on the processing

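Smarcd1 fell in KD1 under every alternative run, with differences of -1.33 to -1.25 when 1 array was left out. Of 226 named genes in the KD1 contrast, 182 kept their direction and call under every alternative (leaving out chromosomes 1 and 14 bears on counts only), 0 changed direction, and 37 lost their call at a change of at least 1 log2 unit. Genes past the threshold in KD1 numbered 6596, between 4416 and 8310 with 1 array left out, 3056 with a change of at least 1 log2 unit and 5007 with the replicate block. In scrambled cells they numbered 5079, between 3341 and 7074 with 1 array left out, 3332 at an adjusted p under 0.01 and 2645 with a change of at least 1. The interaction count, 1024, was the least stable: 2548 with array weights, 2399 without the KD2 arrays or with only the arrays compared, 569 with RA KD1 replicates 1 and 2 alone, 447 with the replicate block, 400 at an adjusted p under 0.01, and between 456 and 2399 with 1 array left out. Whether same-numbered samples were handled together is not known, so it is not settled whether the block is the better design. Leaving out arrays leaves fewer to estimate the spread, and the KD2 arrays had the lowest array weights (0.137 each). Other causes were not tested. Of 161 named or listed genes with an interaction call, 88 lost it under at least 1 of up to 24 alternatives at the same threshold, Aqp3, Jam2 and Vnn1 among them, 59 lost it with RA KD1 replicates 1 and 2 alone, and 0 changed direction. In scrambled cells 50.5% of calls were higher after median centring, against 57.4%. The number of arrays limits what can be called, and dim genes were not tested.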

Other observations

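Energy and lipid genes moved in ways the comparisons above do not show. Of 22 tested glycolysis and hypoxia genes 7 rose and 4 fell in KD1, with a median of 0.29, against 1 that rose and 11 that fell in scrambled cells, with a median of -0.54. By the interaction 8 had a higher and 0 a lower KD1 change, and with RA KD1 replicates 1 and 2 alone 4 had a higher one. Epas1 (HIF-2 alpha), a hypoxia factor, stood at 9.91, 9.95, 10.11 and 9.81 in RA KD1, against 7.29 and 6.97 in ESC KD1. In RA scrambled Epas1 stood at 5.35 and 5.43, against 6.37 and 6.15 in ESC scrambled (interaction 3.68 ± 0.23, adjusted p 1.13e-05). Pfkp, a phosphofructokinase, fell in KD1 by 3.43 and in scrambled cells by 4.01 log2 units. Of 20 cholesterol synthesis genes 13 fell and 2 rose in KD1, with a median of -0.82, against 6 that fell in scrambled cells. With RA KD1 replicates 1 and 2 alone 9 fell, and with cyclic loess scaling 14 fell and 0 rose. By the interaction 5 cholesterol genes had a lower and 1 a higher KD1 change. On RA KD1 replicates 1 and 2 alone 1 had a lower and 1 a higher one. Msmo1, a sterol oxidase, stood at 9.53, 9.06, 8.95 and 8.94 in RA KD1, against 11.66 and 11.46 in ESC KD1 (-2.44 ± 0.19, adjusted p 1.8e-06). Dhcr7, the last enzyme of the pathway in one of its branches, fell by 2.43. Those that rose were Insig1 (0.63), which restrains the pathway, and Stard4 (0.60).

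Of 22 germline genes 8 rose and 10 fell in KD1, with a median of -0.42. Tdrd12 and Sycp3 fell by 4.02 and 3.53 log2 units, while Rec8, a meiotic cohesin, rose by 2.83 and Taf7l by 2.58. Of 21 p53 targets 10 rose and 1 fell, with a median of 0.51, led by Polk (1.95) and Phlda3 (1.54), and in scrambled cells 12 rose. Of 15 interferon genes 6 rose and 5 fell, with a median of -0.12. The 3 members with the largest decreases, Ifitm1, Bst2 and Ifitm2 (-3.86, -2.13 and -2.10), are membrane restriction factors, 2 of them of the Ifitm family that ESCs express. Of 19 genes of the ATF4 and serine group 3 rose and 6 fell, with a median of -0.15. Of 8 tested endothelial and blood genes 2 rose and 3 fell, with a median of -0.04. Pecam1, which ESCs share with endothelium, stood at 4.15 to 4.20 in RA KD1, against 9.14 and 8.59 in ESC KD1. Runx1, a blood factor, rose by 2.09 ± 0.20 in KD1, and its change was larger than in scrambled cells (interaction 2.43 ± 0.30, adjusted p 0.000548).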
